A study of Caenorhabditis elegans with 2 samples.

Results

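The histone genes of Caenorhabditis elegans were examined for occupancy by LSY-27, a zinc finger transcription factor known for its part in setting apart the left and right ASE neurons. Members were the protein-coding genes named his-*, hil-* or htz-1 in the RefSeq annotation of the genome assembly WBcel235 (ce11), which gave 81 of 19983 protein-coding genes. They comprised 61 core histone genes in clusters, 5 core genes outside clusters, 6 core variants and 9 linker histone genes. For each gene the strongest region was taken with a summit in the window that starts 1000 bp before the annotated 5′ end and ends 200 bp after it.

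The regions came from chromatin immunoprecipitation followed by sequencing (ChIP-seq) of whole young adult hermaphrodites of strain OP401, a transgenic line in which LSY-27 carries a C-terminal GFP-FLAG tag. The descriptions name an anti-GFP antibody, whereas the antibody field names lsy-27. The series held 1 group of 2 biological replicates, numbered 2 and 3, with no second genotype, stage or treatment, and neither the promoter of the fusion gene nor the state of the endogenous lsy-27 gene is given in the sources. A whole worm mixes all tissues, so the cells that gave a region cannot be told apart, and neither the control nor the read depth was analysed here.

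Core histones H2A, H2B, H3 and H4 form the octamer around which DNA is wrapped, and the linker histone H1 binds where DNA enters and leaves it. In animals the replication-dependent core genes are present in many near-identical copies and are transcribed mainly in S phase, and their mRNAs typically end in a stem-loop instead of a poly(A) tail. Variants such as H2A.Z and H3.3 are encoded by genes outside the clusters and can be incorporated outside S phase.

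The annotated histone types of the core members compared matched the encoded proteins. All 70 core members compared had their closest protein among members of the same histone type. The 16 H4 genes encoded 1 distinct protein, the 18 H2A genes 3, the 16 H2B genes 4 and the 20 H3 genes 6. H2A.Z (htz-1) was 54.3% identical to each of the other 17 H2A proteins, and the H3.3 proteins of his-71 and his-72 were 94.1% and 93.4% identical to the 15 replication-dependent H3 proteins. The gene his-39 in a cluster and his-73 outside one are annotated only as proteins with an H2A/H2B/H3 domain and were kept apart from the 4 types.

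Sequences are printed for the regions that the results turn on, from the RefSeq WBcel235 assembly and 5′ to 3′. The first 4 lines give 75 bp on each side of the pooled summit, on the strand of the gene, for the strongest variant promoter (htz-1, chrIV:4445884-4446034, plus strand), the only linker promoter found in both replicates (hil-4, chrV:4754163-4754313, plus strand), the H3.3 gene his-72 (chrIII:12369590-12369740, minus strand) and the strongest clustered gene (his-37, chrV:9546885-9547035, plus strand). The last 3 lines give the plus strand between the start codons of a divergent H3-H4 pair, less 40 bp at each end. The pair his-38/his-40 (chrX:7309916-7310069) had a summit between its genes, and the clustered pairs his-6/his-5 (chrV:8535018-8535173) and his-17/his-18 (chrV:8898033-8898187) had none. Capitals mark a TATAAA string, a CCAAT string, a GAGAGA string or the octamer ATTTGCAT on either strand, so that GAGAGA can read TCTCTC and TATAAA can read TTTATA.
htz-1: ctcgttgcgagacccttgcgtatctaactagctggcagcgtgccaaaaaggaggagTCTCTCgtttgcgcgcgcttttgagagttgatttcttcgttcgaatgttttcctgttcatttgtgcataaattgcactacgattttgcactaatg
hil-4: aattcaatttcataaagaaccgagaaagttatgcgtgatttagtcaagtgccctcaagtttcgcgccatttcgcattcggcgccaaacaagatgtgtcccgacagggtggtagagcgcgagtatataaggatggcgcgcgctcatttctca
his-72: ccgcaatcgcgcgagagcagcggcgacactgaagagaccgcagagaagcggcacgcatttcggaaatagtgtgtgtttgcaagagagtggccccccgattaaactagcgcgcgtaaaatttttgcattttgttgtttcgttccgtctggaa
his-37: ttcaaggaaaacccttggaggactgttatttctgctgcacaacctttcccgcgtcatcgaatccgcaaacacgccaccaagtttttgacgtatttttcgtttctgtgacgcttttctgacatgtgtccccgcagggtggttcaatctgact
his-38/his-40: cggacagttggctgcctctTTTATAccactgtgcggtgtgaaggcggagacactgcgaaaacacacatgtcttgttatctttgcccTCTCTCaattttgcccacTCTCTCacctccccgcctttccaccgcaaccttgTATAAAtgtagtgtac
his-6/his-5: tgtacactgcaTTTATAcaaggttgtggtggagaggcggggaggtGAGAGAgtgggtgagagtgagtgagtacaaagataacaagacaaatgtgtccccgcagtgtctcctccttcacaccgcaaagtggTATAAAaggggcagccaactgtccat
his-17/his-18: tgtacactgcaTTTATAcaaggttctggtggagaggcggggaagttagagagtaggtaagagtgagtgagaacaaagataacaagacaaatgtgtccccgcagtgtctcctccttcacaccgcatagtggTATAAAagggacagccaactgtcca

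The 3 H3-H4 intergenic sequences held TATAAA near both ends, 1 for each gene of the pair. The his-38/his-40 line reads in the opposite sense to the other 2, with the H4 gene on its left. With orientation matched and the full distance between start codons used, his-6/his-5 was 94.9% identical to his-17/his-18, and his-38/his-40 was 88.1% identical to his-6/his-5. The htz-1 sequence held 1 GAGAGA, and the hil-4, his-72 and his-37 sequences held none of the 4 strings.

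Few genes of any kind, histone genes included, had a region at the strict level. The thresholded list, which the authors made from the replicates and their pool by the irreproducible discovery rate (IDR), held 342 regions. It placed a region at 3 of the 81 members (3.70%, exact 95% binomial interval 0.770% to 10.4%) and at 1.13% of all protein-coding genes, a share that lies inside that interval. The 3 genes were the H2A.Z gene htz-1 and the divergent pair his-67 and his-68, which shared 1 region. None of the 61 clustered core genes had one, and a count of 0 of 61 allows a share of up to 4.92%. None of the 9 linker genes had one either, which allows up to 33.3%. Both limits take 3 of the total, whereas the exact intervals reach 5.87% for the clustered genes and 33.6% for the linker genes. These intervals and limits treat genes as independent and cover counting error only, although neighbouring histone genes share regions.

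At the relaxed level, which includes background by the authors' own description, the shares of histone genes lay under those of all genes, within counting error. The pooled relaxed list of 30000 regions had a summit at 26 members (32.1%, interval 22.2% to 43.4%) and at 41.5% of all protein-coding genes. The replicate 2 list of 12414 regions had one at 12 members (14.8%), against 21.2% of all genes. The replicate 3 list of 29326 regions had one at 25 members (30.9%), against 39.9% of all genes. Both replicates listed 8 members (9.88%, interval 4.36% to 18.5%), against 13.2% of all genes. For each of these 4 counts the interval of the members held the share of all genes, and 49 members were in no list.

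Counts by class ran from 22.2% of the linker genes to 80% of the isolated core genes. In the pooled relaxed list, 16 of 61 clustered core genes had a region (26.2%, interval 15.8% to 39.1%), as did 4 of 5 isolated core genes (80%, 28.4% to 99.5%). So did 4 of 6 core variants (66.7%, 22.3% to 95.7%) and 2 of 9 linker genes (22.2%, 2.81% to 60%). The share over all protein-coding genes was 41.5%. Head-to-head pairs can share a region, so the distinct regions numbered 11, 2, 4 and 2 in the same order. Core variants and linkers combined gave 6 of 15 (40%, 16.3% to 67.7%), an interval that overlaps that of the clustered genes. Both replicates listed 2 of the 61 clustered genes (3.28%, 0.400% to 11.3%) and 6 of the 20 genes outside clusters (30%, 11.9% to 54.3%). The share over all genes, 13.2%, lies above the first interval and inside the second. With 1 group and members that share regions, no test of these differences was made.

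**Figure D1:**
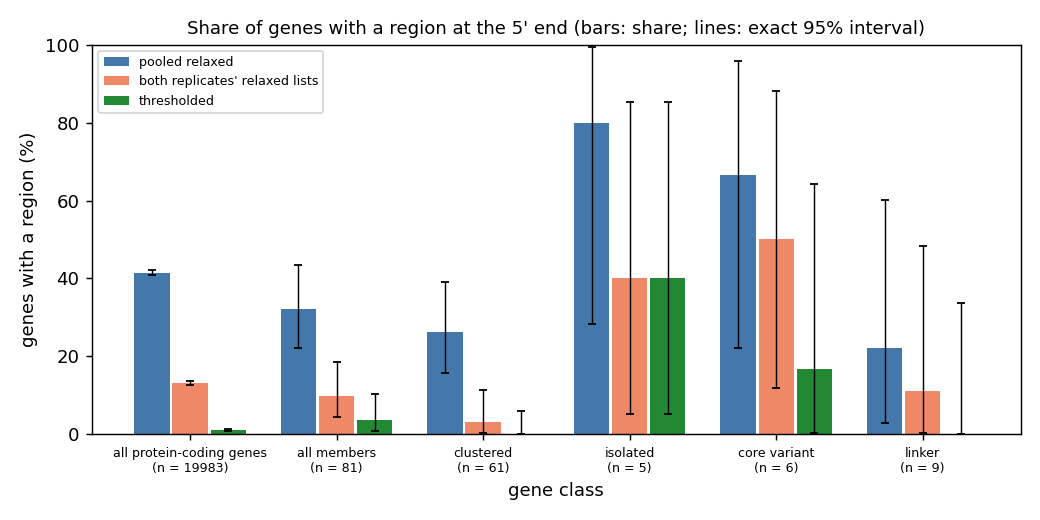
Share of genes with a region in the 5′ window, by class of histone gene and for all protein-coding genes, in percent. Bars show the share in the pooled list, in both replicates' lists and in the thresholded list, error bars the exact 95% binomial interval, and n the number of genes. Clustered core genes had 0 thresholded regions among 61 genes and pooled regions at 26.2%, below the 41.5% of all protein-coding genes.

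The strength of the listed regions by class differed between lists, which also listed different genes. The signal is the authors' own value for a region, its scaling is not stated, and it was used to rank regions within a list and not to compare lists. Over the 16 clustered genes with a pooled region the signal ran from 3.20 to 10.6 with a median of 4.82, close to the 4.78 of the whole pooled list. Over the 6 variant and linker genes it ran from 4.39 to 30.3 with a median of 9.43, and the median over all protein-coding genes with a region was 5.80. As a percentile of the pooled list, where 100 is the strongest, the medians were 50.7 for the clustered genes, 89.5 for the variant and linker genes and 66.2 for all genes. In replicate 3 the order was the opposite, with medians of 77.4 for 12 clustered genes and 71.9 for 9 variant and linker genes. These are not the genes of the pooled medians. The 9 include hil-6, hil-7 and his-71, at replicate 3 percentiles of 15.3, 17.2 and 31.3, which had no pooled region. The 12 include his-46, at 38.5, which had none either. In replicate 2 they were 24.8 for 5 clustered genes and 51.4 for 5 variant and linker genes. The 6 variant and linker pooled values and the 16 clustered ones overlap in range, and only htz-1, hil-5 and the isolated his-67/his-68 pair lay above the strongest clustered gene.

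**Figure D2:**
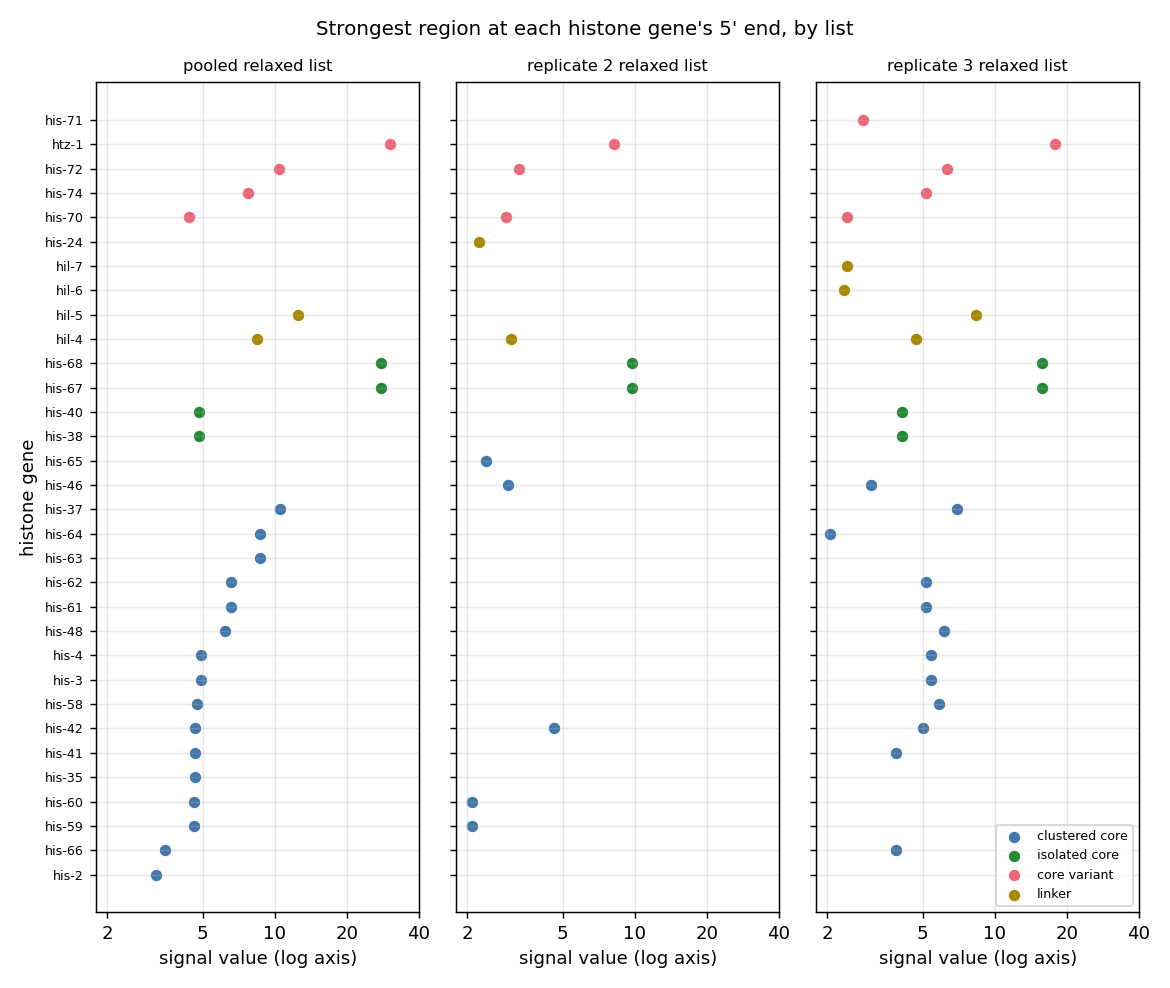
Signal of the strongest region in the 5′ window of each member in the pooled list and both replicate lists (log axis, the authors' value), by class. Each point is 1 gene in 1 list; lists are not on a common scale. The values for htz-1 and for his-67/his-68 lie highest in every list, and clustered genes lie between 3.20 and 10.6 in the pooled list.

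Among the core variants, htz-1 on chromosome IV (4446216 to 4446999, plus strand) had the strongest region of all members. H2A.Z replaces H2A in nucleosomes that flank promoters. The region had a signal of 30.3 in the pooled and thresholded lists, rank 121 of 30000, with a −log10 q-value of 3.47, the highest the pooled list holds. In replicate 2 the signal was 8.18 (rank 396 of 12414) and in replicate 3 it was 17.8 (rank 203 of 29326). The pooled list and both replicate lists therefore placed htz-1 near the top, the thresholded list placed it at rank 121 of 342, and the replicate summits lay 36 bp apart. The pooled summit was 257 bp upstream of htz-1 and 219 bp upstream of the divergent gene wapl-1, a cohesin release factor, so it falls in the windows of both genes.

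The 5 H3.3-type genes ranged from a region listed by both replicates to none. H3.3 is the H3 variant deposited at transcribed and turned-over chromatin. The pooled signal of his-72 was 10.4 (rank 2272, −log10 q-value 2.48), with 3.28 in replicate 2 (rank 5210) and 6.33 in replicate 3 (rank 3922). The replicate summits of his-72 lay 46 bp apart, 615 bp upstream of the annotated 5′ end in the pooled list. That 5′ end belongs to a longer transcript, and the start codon of the H3.3 reading frame lies 893 bp further downstream, 1508 bp from the summit. Measured from that start codon the summit is outside the 1000 bp window, so the region counts only through the longer transcript. The summit is also 791 bp upstream of the proteasome subunit gene rpt-6.

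The other H3.3-type genes had weaker regions. The signal of his-74 was 7.72 in the pooled list (rank 5044, −log10 q-value 1.41) and 5.17 in replicate 3, with no region in replicate 2. The signal of his-70 was 4.39 in the pooled list (rank 17448, −log10 q-value 0.337), 2.89 in replicate 2 and 2.42 in replicate 3. Although both replicates listed his-70, their summits were 473 bp apart. The gene his-71, which encodes a typical H3.3, was listed in replicate 3 only, with a signal of 2.81 and a summit 186 bp inside the gene, and his-69 was in no list. Thus his-71 and his-72, which encode the 2 H3.3 proteins closest to H3, differed in each relaxed list, with his-72 counted from the 5′ end of its longer transcript.

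Linker histone genes were mostly unlisted or near the lower end of a list. The strongest was hil-5, with a pooled signal of 12.5 (rank 1436, −log10 q-value 3.47, summit 169 bp upstream) and 8.33 in replicate 3, but no region in replicate 2. The signal of hil-4 was 8.44 in the pooled list (rank 4016, −log10 q-value 1.77, summit 75 bp upstream), 3.06 in replicate 2 (rank 6035) and 4.68 in replicate 3 (rank 8240). The replicate summits of hil-4 were 161 bp apart. Of the rest, hil-7 (2.41) and hil-6 (2.35) were listed in replicate 3 only and his-24, the H1.1 gene, in replicate 2 only (2.24), all in the lower part of lists that start at a signal of 2.00. The genes hil-1, hil-2, hil-3 and hil-8 were in no list.

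The isolated core genes included the strongest region at any replication-dependent type gene. The H4 gene his-67 and the H2A gene his-68 lie head to head on chromosome I, the only H2A-H4 pair among 31 divergent pairs, with 368 bp between their start codons. Their shared region had a signal of 27.7 in the pooled list (rank 166, −log10 q-value 3.47), 9.74 in replicate 2 (rank 215) and 15.8 in replicate 3 (rank 299). The replicate summits were 14 bp apart and the pooled summit lay between the genes, 240 bp from his-67 and 129 bp from his-68. The same summit is 799 bp upstream of the Argonaute gene alg-5, so it falls in that window too.

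The other isolated pair had a much weaker region. The H4 gene his-38 and the H3 gene his-40 on chromosome X shared a pooled region of signal 4.84 (rank 14705, −log10 q-value 0.442), with 4.09 in replicate 3 and none in replicate 2. Its summit also lay between the genes. The isolated gene his-73, annotated with 46 residues, was in no list.

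Among clustered genes, the strongest region belonged to his-37, an H4 gene with an intron on chromosome V (9547105 to 9547607). Its signal was 10.6 in the pooled list (rank 2200, −log10 q-value 2.60) and 6.96 in replicate 3, both with the summit 145 bp upstream, and replicate 2 listed none. It belongs to the run of his-35, his-41 and his-37, in which all 3 genes have introns, whereas 4 of the 61 clustered genes have one. The pair his-35 and his-41 shared a region of signal 4.64, and that summit is also 696 bp upstream of the neighbouring gene C50F4.6.

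The next clustered genes were members of divergent pairs on chromosomes IV and V. The H3 gene his-63 and the H4 gene his-64 shared a pooled region of signal 8.70 (rank 3700, −log10 q-value 1.91), whose summit was 189 bp inside his-64. Replicate 2 listed neither, and replicate 3 listed only his-64, with a signal of 2.05 at a summit 1000 bp upstream. The pooled region of that pair was therefore found in neither replicate at the same position.

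The H2A gene his-61 and the H2B gene his-62 shared a pooled signal of 6.59 (rank 7463), with 5.16 in replicate 3. The H2A gene his-3 and the H2B gene his-4 shared 4.92 in the pooled list and 5.42 in replicate 3. The H2B genes his-48 and his-58 had pooled signals of 6.18 and 4.72, with summits 791 and 978 bp upstream. The first lies beyond the divergent partner his-47 and the second inside the divergent partner his-57. None of these 6 genes was listed in replicate 2.

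The clustered genes listed by both replicates were his-42 and his-46. The H3 gene his-42, at the end of the chromosome II cluster, had signals of 4.65 in the pooled list, 4.61 in replicate 2 and 5.00 in replicate 3. Its pooled summit, 667 bp upstream, lies within the small nuclear RNA gene F08G2.10, and no other member region has its summit so close (500 bp or less) to a gene for a tRNA, snRNA or snoRNA. The H4 gene his-46 had signals of 2.95 and 3.05 in the replicates and none in the pooled list. The replicate summits were 169 bp apart for his-42 and 173 bp apart for his-46.

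Replicate support for single members was limited. Of the 81 members, 8 were listed by both replicates, 4 by replicate 2 only, 17 by replicate 3 only and 52 by neither. Summits of the 2 replicates lay within 100 bp of each other for 4 of those 8, namely htz-1, his-67, his-68 and his-72. Over all genes the same held for 1061 of 2639. No clustered gene had replicate summits that close. The list of replicate 2 is the shorter one, with 12414 regions against 29326, and the part of list length in these counts was not tested.

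Counts by histone type within clusters overlapped. A pooled region was listed for 3 of 16 H2A genes (18.8%), 6 of 16 H2B genes (37.5%), 4 of 14 H3 genes (28.6%) and 3 of 14 H4 genes (21.4%), with intervals that all overlap. The share over all protein-coding genes, 41.5%, lies inside each of these intervals, which rest on 14 to 16 genes each. Over all 61 clustered genes the interval was 15.8% to 39.1%, which lies below 41.5%. It treats genes as independent, although neighbouring genes share regions.

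Listed genes were unevenly spread over the clusters. The 61 genes fall into 11 runs that cover 58.2 kb and hold 14 pooled summits, which is 0.240 per kb against 0.299 per kb over the nuclear genome. At least 1 gene had a pooled region in 7 of the runs, and none of 25 genes did in the other 4. In the run from his-61 to his-59 on chromosome IV, all 4 genes had one, and 4 pooled summits lay inside it. The largest run, from his-16 to his-42 on chromosome II, had 1 listed gene of 13 and 0 summits inside its 10938 bp.

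**Figure D3:**
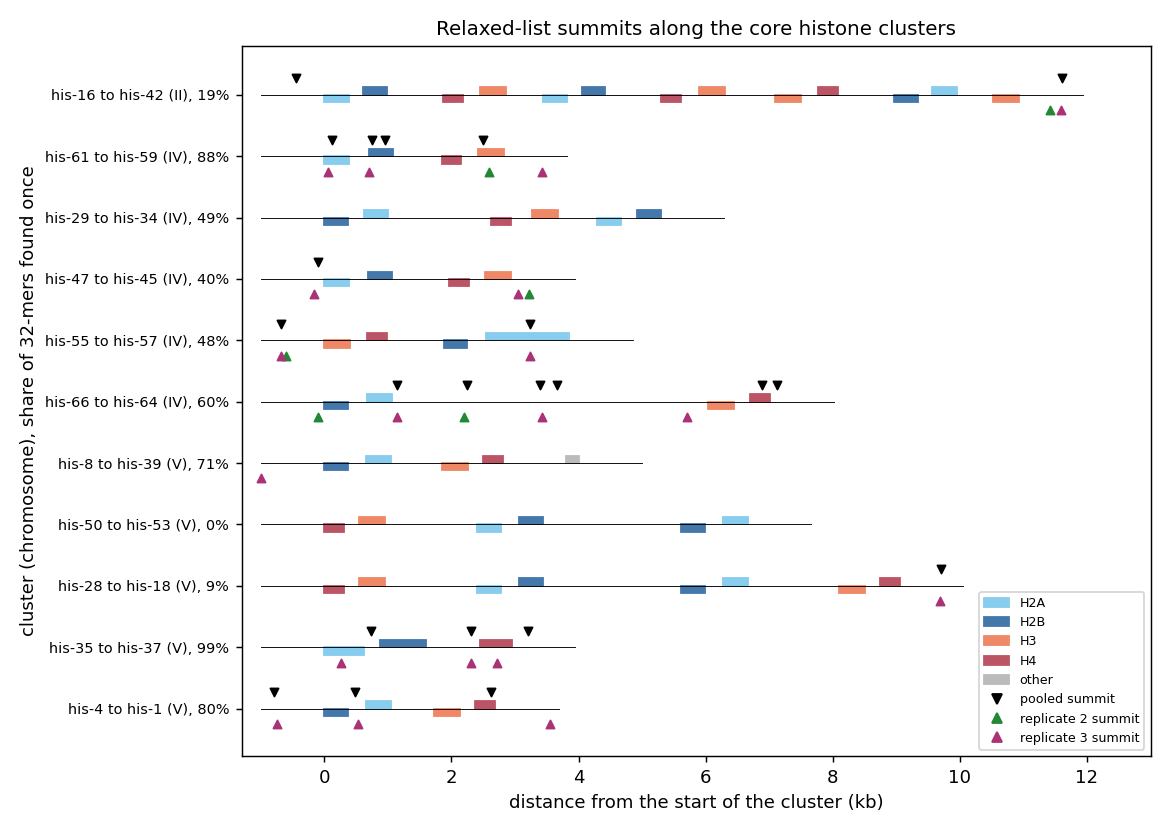
Maps of the 11 runs of core histone genes to scale, with genes as boxes coloured by type (upper row plus strand, lower row minus strand) and summits of the pooled list and of each replicate as triangles. The label gives the share of 32-base words found once in the genome over the run and 1 kb on each side. The run from his-50 to his-53, at 0%, has no summit. The run from his-66 to his-64 has 5 pooled summits inside, several of them in the gap between his-65 and his-63.

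Sequence copies moved with these counts. Reads from sequence that occurs more than once cannot be placed uniquely, and how the authors treated such reads is not stated. The share of 32-base words of the window found once in the genome had a median of 14.5% for clustered genes, 84.9% for isolated core genes, 100% for core variants and 99.8% for linker genes, with 100% over all protein-coding genes. Fewer than 50% of the words were found once for 43 of the 61 clustered genes and for none of the 20 other members. Of the 20 clustered genes with no such word, 0 were in any list, and of the 18 with 50% or more, 12 had a pooled region.

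Genes that are not histones moved the same way. Where under 50% of the words were found once, 37 of 603 other genes had a pooled region (6.14%), against 4 of 43 members (9.30%), and 0 of either had a thresholded one. From 50% to under 90%, the counts were 618 of 2156 other genes (28.7%) and 13 of 21 members (61.9%). At 90% or more they were 7614 of 17143 other genes (44.4%) and 9 of 17 members (52.9%). Head-to-head members that share a region were each counted in these bands. Over all bands, the 26 members with a pooled region had 19 distinct regions. Over all bands together the share was 32.1% for the members and 41.5% for all protein-coding genes. In the top band the members comprised 3 of 3 clustered genes, the run of his-35, his-41 and his-37, with 3 of 5 variants, 2 of 8 linkers and 1 of 1 isolated core gene. Whether sequence copies account for the lower share of clustered genes was not tested.

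**Figure D4:**
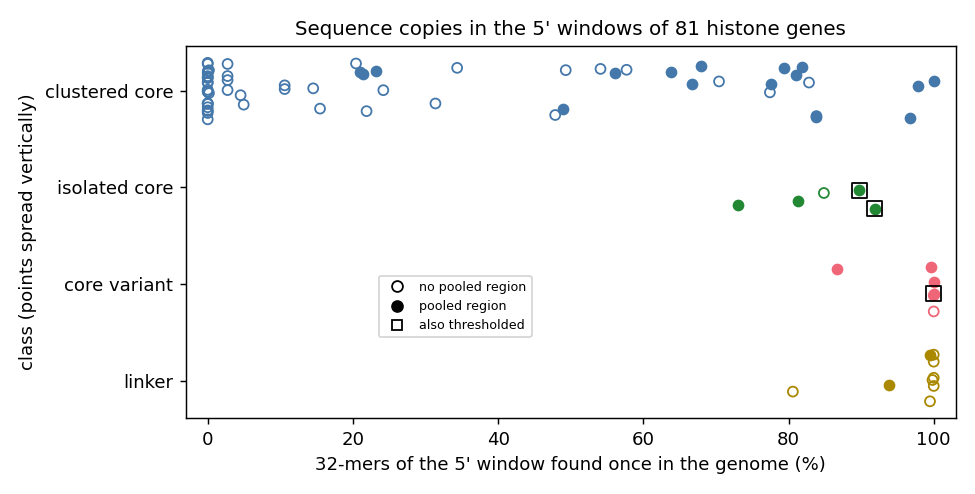
Share of 32-base words of the 5′ window found once in the genome, in percent, for each of the 81 members by class, with points spread vertically for visibility. Filled points have a pooled region and squared points also a thresholded one; 43 of the 61 clustered genes lie under 50%, and 4 of those 43 are filled.

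At the divergent pairs, summits in the shared promoter were counted as well. The 31 head-to-head pairs comprised 16 H2A-H2B, 14 H3-H4 and 1 H2A-H4 pair, with 227 to 368 bp between start codons. A pooled summit lay between the start codons of 4 pairs, his-67/his-68, his-35/his-41, his-4/his-3 and his-38/his-40, and his-61/his-62 had a replicate 3 summit there. In 16 pairs the sequence between the start codons was identical to that of another pair, and none of these had a summit there in any list. Among the other 15 pairs, 5 had one. The pairs his-60/his-59, his-31/his-32 and his-2/his-1 had none either, although at least 95.5% of their words were found once.

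Member summits were upstream of the gene about as often as those of other genes, in a window that reaches further upstream than downstream. Of the 26 members with a pooled region, 23 had the summit upstream of the 5′ end, and of all 8295 genes with a region 7204 did. The median position was −211 bp for the members and −304 bp over all genes with a region. A summit from 400 bp upstream to the 5′ end was found for 16 of the 26 (61.5%) and for 46.7% of all genes with a region. For clustered genes this was 7 of 16, and for the other members 9 of 10. In 65 members the annotated 5′ end is the first base of the coding sequence, so distances from the transcription start are not known for them.

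**Figure D5:**
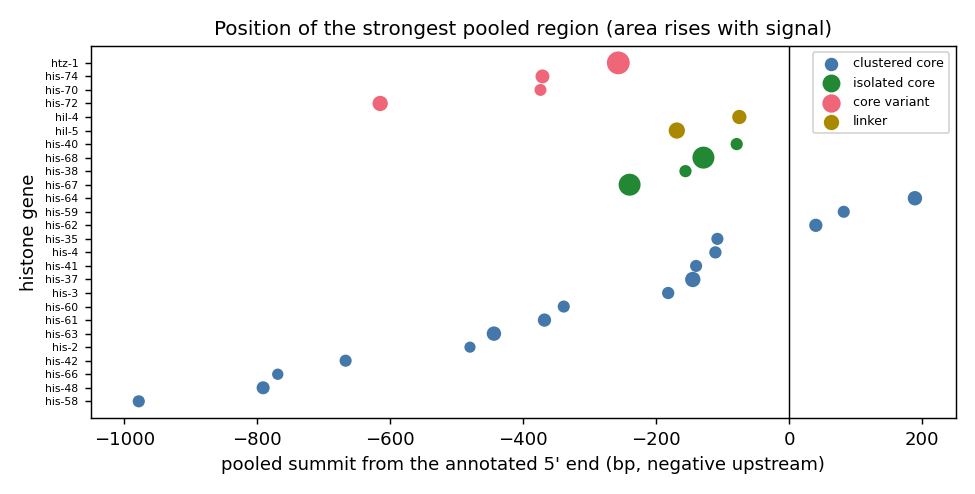
Position of the pooled summit relative to the annotated 5′ end in bp, with negative values upstream, for the 26 members with a pooled region. Each point is 1 gene, coloured by class, with an area that grows with the signal. The 10 members outside clusters lie between −615 and −75 bp, and the 16 clustered members run from −978 bp to 189 bp inside the gene.

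The 4 letter strings capitalised in the sequences were counted on both strands from 250 bp before to 50 bp after the 5′ end. TATAAA, the core of the TATA box, was present in 51 of 81 members (63%) and in 37.9% of the windows of all protein-coding genes. It was present in 41 of 61 clustered genes (67.2%), 5 of 9 linkers (55.6%) and 2 of 6 variants (33.3%). GAGAGA was present in 35 members (43.2%) and in 21.7% of all windows, with 28 of 61 clustered genes, 4 of 5 isolated genes and 0 of 6 variants. CCAAT was present in 43 members (53.1%) against 45.5% of all windows. The octamer ATTTGCAT was present in 0 members against 2.86% of all windows. Within 50 bp of the summit, GAGAGA was present in 4 of the 19 distinct member regions (21.1%) and in 7.90% of all nuclear pooled regions. TATAAA was present in 3 of those 19 (15.8%) against 10.9%, and CCAAT in 1 (5.26%) against 19.6%. A match is a description of the letters and not a binding site, and near-identical copies make the clustered windows repeats of one another.

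Genes whose products handle histones were examined beside the histone genes. A list of 24 genes for centromeric H3, histone chaperones, assembly factors and H2A.Z exchange was used. A pooled region was listed for 21 of them (87.5%, against 41.5% of all genes), with signals from 3.31 to 28.9 and a median of 11.8. Both replicates listed 12 of the 24, against 13.2% of all genes. A thresholded region was listed for 2 of the 24, against 1.13% of all genes. Those 2 were lin-53 (28.9, rank 143), a histone-binding subunit of chromatin assembly factor 1, and hcp-3 (26, rank 199), the centromeric H3. The lin-53 summit, at −227 bp, also falls in the window of the Nicalin gene nra-2, at −240 bp. Next came mys-1 (17.6), the Tip60 acetyltransferase, and nasp-2 (16.4), a NASP-type histone chaperone. The stem-loop binding protein gene cdl-1, whose product binds replication-dependent histone mRNAs, had a signal of 7.05, and the second centromeric H3 gene cpar-1 had 8.52. The list was drawn up with earlier results of these data known, and no test was made of it against the members.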

How the data were processed

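LSY-27 ChIP-seq was available for 2 replicates of 1 group. The ce11 lists hold a signal per region and a −log10 q-value, both as deposited by the authors, and the deposited summit offset, which counts bp from the region start. The relaxed lists were called per replicate and on the pooled replicates against a control, per the text deposited beside the lists, and the thresholded list was made from them by IDR. The caller, aligner, IDR settings and read depth are not given in the sources used here; depth, and with it the precision of a signal, is unknown. The lists on ce10 were not used, since no genome of that build was at hand.

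Regions were assigned to genes of the RefSeq WBcel235 annotation by the summit, over the 1000 bp before and 200 bp after the 5′ end. Core genes in runs of at least 3 with 5′ ends at most 10 kb apart counted as clustered. Proteins and intergenic sequences were aligned with Biopython 1.88. Words of 32 bases were counted on both strands of the whole assembly. Shares carry exact Clopper-Pearson 95% intervals (scipy 1.17.1), and a count of 0 allows 3 of the total. Python 3.11.15, numpy 2.4.6, pandas 2.3.3 and matplotlib 3.10.9 were used, and the assignment was tested on simulated data. No test between groups exists with 1 group.

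Named were members with a thresholded region, variants and linkers in any list, isolated genes with a pooled region and the 10 strongest clustered genes. The genes his-46, his-35, his-41 and others outside this rule were chosen after their values were seen. Members, classes and lists were chosen with earlier results of these data known. Replicates are separate biological samples per the labels.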

Additional observations from a re-analysis of the deposited data

How the results depend on the processing

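Of 101 values recomputed under other settings, 14 moved beyond the tolerance used and 87 did not. The tolerance allowed counts 1.5 times. For median percentiles it allowed 1 SD of the 2 single-replicate medians, which is 37.2 for clustered and 14.5 for variant and linker genes. That SD is made from the replicate medians themselves, so it cannot judge the medians with 1 replicate left out. The count of members with a thresholded region was 3 under every window, overlap and signal setting, and 2 as distinct regions or among members with at least 90% of 32-base words found once, a setting chosen after seeing the data. The 26 members with a pooled region became 17 with the stronger regions of each list (above its median), 13 with relaxed lists of equal length, 9 with that share of unique words, and 12 to 25 when 1 replicate was left out, where the lowest is replicate 2 alone. The 8 members in both replicates became 4 with 500 bp upstream, 16 with 2000 bp upstream and 4 with unique words. Leaving out 1 replicate gives 12 to 25, which are the counts of the single lists and say nothing about how stable the 8 is. The 16 clustered genes became 8 with the stronger regions, 6 with equal length, 3 with unique words and 5 to 12 with 1 replicate left out. Without the run of his-35, his-41 and his-37, also left out after seeing the data, they were 13. The median percentile of variant and linker genes, 89.5, fell to 51.4 in replicate 2 and 71.9 in replicate 3, while that of the clustered genes, 50.7, was 24.8 and 77.4. In replicate 3 the clustered median was thus the higher, over sets of genes that differ from those of the pooled list, and the cause was not tested. No paired analysis was possible because the series has 1 group. Read depth was not analysed here, so a gene in no list is not shown to be unbound.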
